A study of Mus musculus with 13 samples.

Results

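The saline-treated 5xFAD hippocampus was described from the 4 libraries that the labels assign to saline, out of 13 libraries in the series. These are animals 18, 19, 32 and 38, and the description covers the level, rank and spread of genes among them, with no comparison against a treated group. 5xFAD mice carry human transgenes, APP among them, with familial Alzheimer's disease mutations, driven by the neuronal Thy1 promoter. Every animal in the series is 5xFAD, and the others received Aducanumab, an antibody against aggregated amyloid beta, or ACLP-NT, known here by its code name alone. No wild-type library is among them, so no level given here can be set against a hippocampus without amyloid. The labels state no age, sex, route, dose or duration, and they do not say whether App and Thy1 in the table also hold reads of the transgenes. Poly(A) RNA of the whole hippocampus was sequenced in bulk, so that fewer cells of a type and less RNA per cell cannot be told apart.

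In 5xFAD mice amyloid beta is cut from the precursor protein by beta- and gamma-secretase in neurons and aggregates into plaques. Microglia gather at plaques, lose part of their resting programme and take up a state marked by Trem2 signalling, lipid handling and lysosomal genes, while nearby astrocytes become reactive. The hippocampus borders the ventricle, so a dissected piece can also hold choroid plexus, ependyma and meninges.

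The deposited table lists 36287 genes, of which 22952 had a count in every saline library and 4177 had none in any. Total counts ran from 57513570 in library 18 to 69734713 in library 38. Levels are FPKM, fragments scaled by gene length and by library size, and are the scale on which different genes are compared. A mean of at least 1 FPKM was reached by 13972 genes, of at least 10 FPKM by 4513 and of at least 100 FPKM by 264. Spread was described over the 13699 genes with a mean of at least 1 FPKM and a mean count of at least 50, called the floor from here on, of which 12258 were protein-coding. The median level past the floor was 6.0 FPKM. Values in sets of 4 follow the order of libraries 18, 19, 32 and 38, and errors are SD over n = 4. As the group has no counterpart here, no test between groups was made, and each statement on spread concerns these 4 animals. A limit for single distant libraries was applied only in the closing section. Over all genes past the floor, libraries 18, 19, 32 and 38 were the highest for 27.9, 23.3, 20.9 and 27.9% and the lowest for 24.6, 29.8, 24.1 and 21.5%, against which counts of the highest or lowest library in a list are to be read.

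The top of the profile was mitochondrial. The 100 highest genes held 40.9 ± 1.36% of the summed FPKM, and the mitochondrially encoded genes held 23.9 ± 1.24% (22.6, 25.4, 24.3 and 23.4%). Of the counts, which are not scaled by gene length, the mitochondrially encoded genes held 7.24 ± 0.501%. Of the 21 genes at 1000 FPKM or more, 14 lie on the mitochondrial chromosome. The highest was mt-Co1, a catalytic subunit of cytochrome c oxidase, at 12769, 14499, 13704 and 13270 FPKM, which ranked 1 in every library. mt-Cytb, of complex III, followed at 6422 ± 613 FPKM. All 15 listed mitochondrial genes were lowest in library 18, and 14 of the 15 were highest in library 19, so the libraries at both ends were the same for 14 of them.

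A block of nuclear copies on chromosome 1 stood beside them. The table gives 7 such copies 8.30 ± 0.425% of the summed FPKM, among them Atp6-ps at 5942 ± 323 FPKM and Gm28661 at 4913 ± 355 FPKM. In a reference transcript set, every 31-base word of Gm28661 also occurs in mt-Co2, which stood at 4820 FPKM, and the count of the copy was 1.01 to 1.02 times that of mt-Co2 in each library. Reads of such a pair cannot be assigned to either, so the levels of the copies and of their mitochondrial genes are uncertain.

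Outside the mitochondrial genome and its copies, and with all other pseudogenes left out, the highest genes by mean were as follows. Ttr, which encodes the thyroid hormone carrier transthyretin, had the highest mean, but from very unequal libraries, and is described with the choroid plexus. Eef1a1, a translation elongation factor, was at 860, 835, 914 and 905 FPKM. Cpe, the carboxypeptidase that trims neuropeptides, was at 879, 851, 878 and 834 FPKM. Apoe, the main lipid carrier of brain, made by astrocytes and induced in plaque microglia, was at 733, 757, 843 and 899 FPKM, highest in library 38. Next stood Cst3 at 620 ± 62.7 FPKM (cystatin C, a cathepsin inhibitor) and the matricellular astrocyte gene Sparcl1 at 559 ± 21.0 FPKM. The calmodulin genes Calm2 and Calm3, the ubiquitin gene Ubb, the ferritin heavy chain gene Fth1, and the neuronal genes Ncdn, Nrgn and Ddn all lay between 483 and 544 FPKM. In this range were also lysosomal genes: Ctsd, the aspartyl protease cathepsin D, at 508 ± 82.3 FPKM, and Psap, the precursor of the saposins, at 495 ± 38.8 FPKM. Their ranks by mean were 34 and 35 of all genes in the table.

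**Figure D1:**
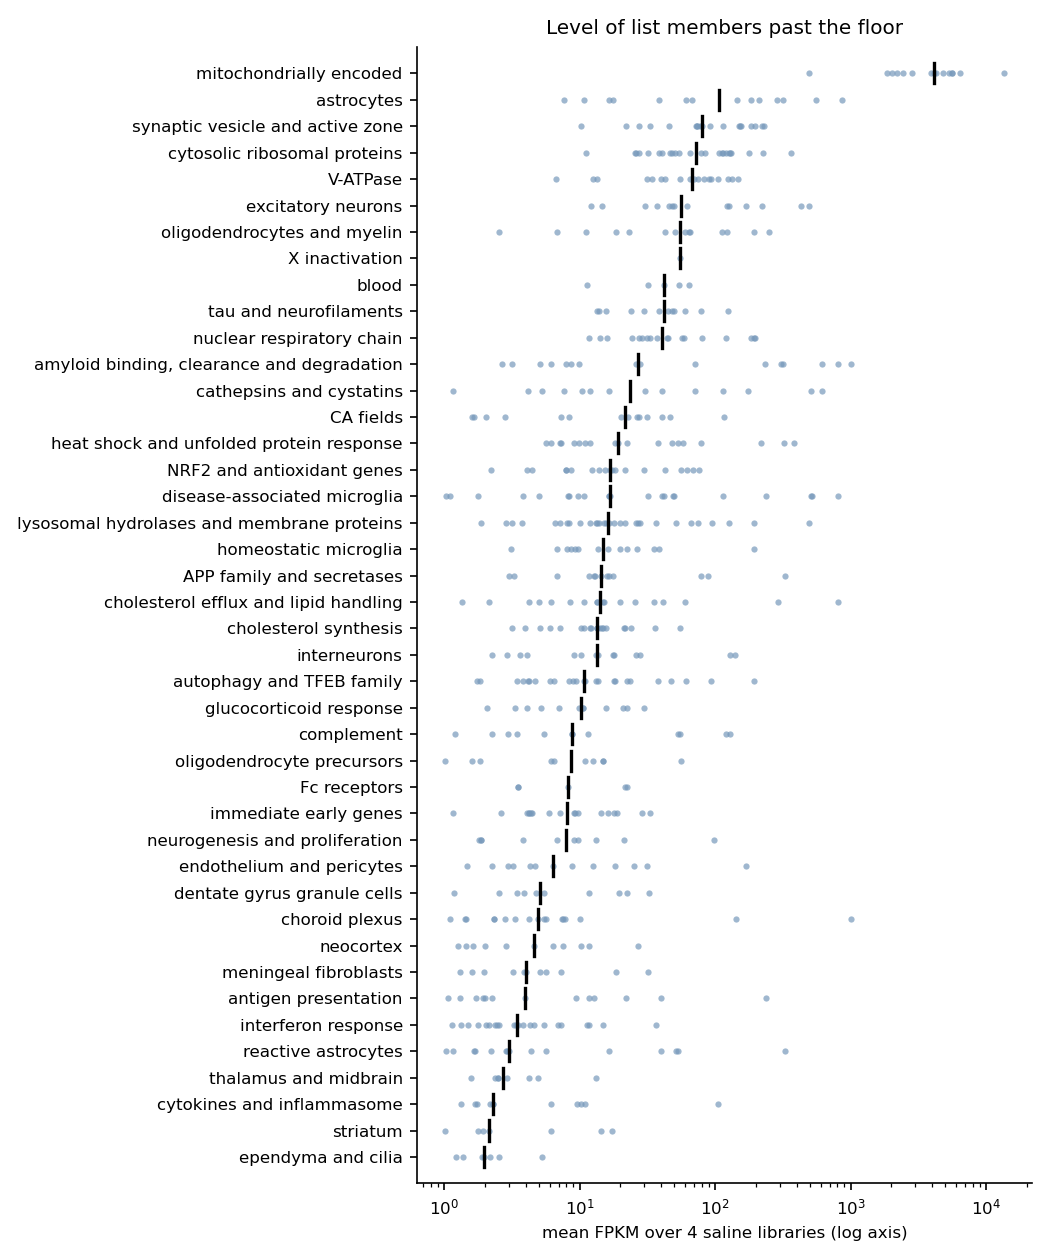
Mean FPKM over the 4 saline libraries on a log axis for each member past the floor (points) of the gene lists, with the list median as a black bar, ordered by that median. Mitochondrially encoded genes lie highest with a median of 4106 FPKM, astrocyte genes follow at 107 FPKM, and ependymal genes lie lowest at 1.97 FPKM.

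The 4 animals were close to each other for most genes. The median coefficient of variation (CV, SD over mean) past the floor was 7.72%, of which counting error alone would give a median of 2.31%. A CV of at most 5% was found for 3424 genes (25%) and a CV over 50% for 201 genes (1.47%). The CV was larger at low levels, with a median of 9.10% between 1 and 10 FPKM and 5.81% between 10 and 100 FPKM. A highest library at 2 times the lowest or more, called a 2-fold range, was reached by 610 genes, or 4.45% of those past the floor, and a 10-fold range by 61. Each list count of 2-fold ranges below is to be read against that 4.45%, or against 2.56% (348 of 13581 genes) when library 38 is left out. Between any 2 libraries, 182 (18 and 32) to 286 (18 and 38) genes differed 2-fold, and a chi-square over counts was 30.5 to 72 per gene, so that no pair differed by as little as counting error. Fitted with edgeR on the raw counts of the 19275 genes that its own filter kept, the common biological coefficient of variation was 18.7%. The separate estimate that follows abundance had a median of 31.9% in the least abundant of 4 equal sets of these genes and 9.21% in the most abundant.

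**Figure D2:**
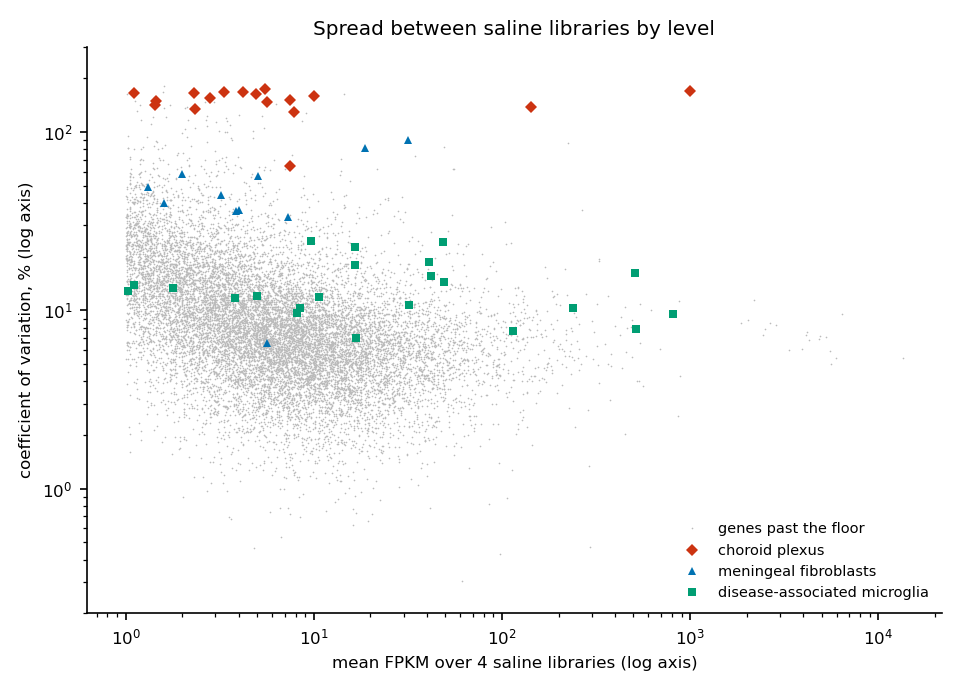
Coefficient of variation over the 4 saline libraries against mean FPKM, both on log axes, for the genes past the floor (grey), with choroid plexus, meningeal fibroblast and disease-associated microglia genes marked. Choroid plexus genes lie at the top over the whole range of levels, with a median CV of 156%, while disease-associated microglia genes lie within the cloud with a median of 12.4%. Without library 38 the 7 choroid plexus genes that pass the floor have a median CV of 58.1%.

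The 3 most even genes at 10 FPKM or more follow. Psmc5, an ATPase subunit of the proteasome, was at 61.1, 61.4, 61.0 and 61.0 FPKM, a CV of 0.304%. Gnas, the stimulatory G protein alpha subunit, had a CV of 0.431% around 97.7 FPKM, and Scd2, the main brain fatty acid desaturase, a CV of 0.474% around 293 FPKM. Counting error alone gives CVs of 1.3%, 0.361% and 0.301% for these 3 genes.

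The excitatory neuron list, with 14 of 14 members past the floor, had a median of 55.7 FPKM, a median CV of 7.73%, as over all genes, and no member with a 2-fold range. Nrgn, which encodes the calmodulin-binding postsynaptic protein neurogranin, was at 491, 476, 527 and 465 FPKM, and Camk2a, the main synaptic kinase, at 407, 445, 481 and 392 FPKM. Slc17a7, the vesicular glutamate transporter of cortical and hippocampal neurons, was at 222, 212, 242 and 202 FPKM. Library 32 was the highest for 10 of the 14 members (20.9% of all genes) and library 38 the lowest for 9 (21.5% of all genes). Neurod6, a transcription factor of pyramidal neurons, had the largest range, from 44.8 FPKM in library 19 to 74.1 FPKM in library 32. The synaptic vesicle and active zone list had a median of 80.6 FPKM over 19 members, none with a 2-fold range, and was lowest in library 38 for 14.

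Markers of the hippocampal fields were all past the floor. Prox1, the identity factor of dentate granule cells, was at 11.2, 9.89, 13.4 and 12.4 FPKM, and C1ql2, a mossy fibre synaptic organiser, at 32.4, 27.1, 39.4 and 31.5 FPKM. All 10 granule cell genes and all 14 CA field genes passed the floor, with median CVs of 13.8% and 15%. Wfs1, a marker of CA1 pyramidal cells, was at 29.3, 23.5, 19.4 and 19.0 FPKM, and Pcp4, marked in CA2 and in the dentate gyrus, at 43.4, 51.3, 43.1 and 46.5 FPKM. The exception in spread was Coch, with 1.33, 4.38, 1.75 and 3.81 FPKM, which was higher in libraries 19 and 38 than in the other two. Calb1, the calcium buffer of granule cells, stood apart in library 19, at 27.0 FPKM against 20.2 to 21.0 FPKM in the others.

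Among interneuron genes, with a median CV of 13.9%, Sst (somatostatin) was at 144, 155, 132 and 132 FPKM and Cck (cholecystokinin) at 134, 131, 135 and 116 FPKM. Gad1, the enzyme of GABA synthesis, was at 32.8, 27.7, 24.3 and 26.0 FPKM, and Vip at 4.04, 4.56, 2.46 and 3.53 FPKM. Library 19 was the highest for 9 of the 14 members (23.3% of all genes) and library 32 the lowest for 8 (24.1%). None had a 2-fold range; Lamp5, of neurogliaform cells and upper cortical layers, came nearest at 1.88-fold, with 14.6 FPKM in library 19 and 7.76 FPKM in library 32.

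Astrocyte genes were the most even of the cell type lists. The median CV of the 14 members was 4.51%, and their summed FPKM was 2735, 2798, 2789 and 2813. Slc1a2, the main glutamate transporter, was at 176, 194, 190 and 179 FPKM, and Glul, which turns glutamate into glutamine, at 276, 291, 288 and 293 FPKM. The least even was the connexin gene Gjb6, with a CV of 13.8%, followed by Aqp4, the water channel of astrocyte endfeet, at 38.2, 31.6, 44.0 and 39.3 FPKM.

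Myelin genes followed another order. Mbp, myelin basic protein, was at 272, 234, 241 and 257 FPKM. Of 14 members, 13 were highest in library 18 and 12 lowest in library 19, and the summed FPKM was 1126, 900, 1004 and 1068. Over all genes past the floor, 27.9% were highest in library 18 and 29.8% lowest in library 19. Olig1, a factor of the oligodendrocyte lineage, led the precursor list at 60.2, 56.6, 53.8 and 54.0 FPKM.

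The amyloid precursor and its processing machinery were level across the animals. App, at chromosome 16, 84746573 to 84970654 on the minus strand in the table's coordinates, was at 97.1, 84.0, 86.7 and 87.6 FPKM, and ranked 314 by mean. Its relatives Aplp1 and Aplp2 were at 346, 321, 325 and 318 FPKM and at 83.4, 77.7, 72.9 and 82.5 FPKM. Library 18 held the highest value of all 3. Thy1, whose promoter drives the transgenes and which is itself a neuronal surface protein, was at 389, 356, 407 and 374 FPKM.

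Of the secretases, Bace1, the beta-secretase that starts amyloid production, was at 18.9, 16.9, 17.7 and 17.5 FPKM. Adam10, the main alpha-secretase, which cuts within the amyloid sequence, was at 16.8, 15.9, 16.1 and 16.6 FPKM. Psen2, a catalytic gamma-secretase gene, was at 2.99 ± 0.277 FPKM. The ratio of App to Bace1 was 5.01 ± 0.0950, from 4.91 to 5.13. Bace2 alone among the 14 members stayed below the floor, at 0.484 FPKM, and no member had a 2-fold range. The widest range of the 13 past the floor was 1.29-fold, for Aph1b, a gamma-secretase subunit gene.

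Among genes that bind, clear or degrade amyloid beta, Ttr, Apoe and Cst3 were highest by mean. Clu, the apolipoprotein clusterin, was at 308, 281, 320 and 364 FPKM. Itm2b and Prnp, membrane proteins that bind amyloid beta or its precursor, were at 233 ± 15.1 and 306 ± 16.3 FPKM. The degrading enzymes were lower: Ide, insulin-degrading enzyme, at 11, 6.22, 10.1 and 7.26 FPKM, and Mme, neprilysin, below the floor at 0.282 FPKM. Bin1 and Picalm, endocytic genes near human risk loci, were at 71.0 ± 2.15 and 9.87 ± 0.421 FPKM. Ttr was the member with a 2-fold range.

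Mapt, which encodes tau, was at 51.9, 48.3, 47.3 and 44.8 FPKM, highest in library 18 and lowest in library 38. The neurofilament gene Nefl was at 131, 114, 138 and 119 FPKM. All 12 members of that list passed the floor with a median of 41.6 FPKM, and the largest CV was 12.9%, for Nefh.

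All 22 genes of the disease-associated (plaque) microglia list passed the floor, with means from 1.03 to 808 FPKM and a median of 16.7 FPKM, and none had a 2-fold range. Trem2, the lipid-sensing receptor of microglia, was at 15.7, 12.7, 18.4 and 19.3 FPKM. Its signalling adaptor Tyrobp was at 44.8, 34.4, 54.4 and 61.7 FPKM, the widest range of the list at 1.79-fold. Library 19 was the lowest and library 38 the highest for both.

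Cst7, encoding cystatin F, an inhibitor of lysosomal cathepsins that microglia switch on at plaques, was at 38.4, 30.9, 47.2 and 46.2 FPKM. Clec7a, the beta-glucan receptor dectin-1, was at 9.93, 9.24, 11.8 and 11.7 FPKM, and Itgax, the integrin CD11c, at 3.59, 3.31, 4.10 and 4.27 FPKM. Lower members were Spp1 (osteopontin) at 8.17 ± 0.791 FPKM, Lpl (lipoprotein lipase) at 4.98 FPKM, Gpnmb at 1.79 FPKM, Lgals3 (galectin-3) at 1.10 FPKM and Igf1 at 1.03 FPKM. The animals fell into an order: 17 of the 22 members were lowest in library 19, against 29.8% of all genes, and 21 were highest in library 32 or 38. The summed FPKM of the list was 2325, 2245, 2675 and 2756, to which Apoe, Fth1, Ctsd and B2m, genes that other cells of the hippocampus also express, gave most.

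Homeostatic microglia genes kept levels in the same range. Csf1r, the receptor microglia need to survive, was at 37.1, 36.6, 41.4 and 40.2 FPKM, and P2ry12, the nucleotide receptor of resting microglia, at 25.2, 22.5, 28.1 and 29.4 FPKM. Tmem119 differed in order, at 12.1, 15, 13.7 and 14.1 FPKM. The list sums 389, 370, 449 and 443 separated libraries 32 and 38 from 18 and 19, as the disease-associated sums did. The ratio of Cst7 to P2ry12 was 1.54 ± 0.127 and that of Trem2 to P2ry12 was 0.626 ± 0.0429. These pairs varied by CVs of 8.28% and 6.86% where Cst7 and Trem2 themselves varied by 18.7% and 17.9%. The ratio of Tyrobp to Csf1r stayed wide, at 1.21, 0.939, 1.31 and 1.54, a CV of 19.9% against 24.3% for Tyrobp itself. Mef2c, a factor of microglia that neurons also express, ran the other way, from 6.13 FPKM in library 32 to 12.1 FPKM in library 19.

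**Figure D3:**
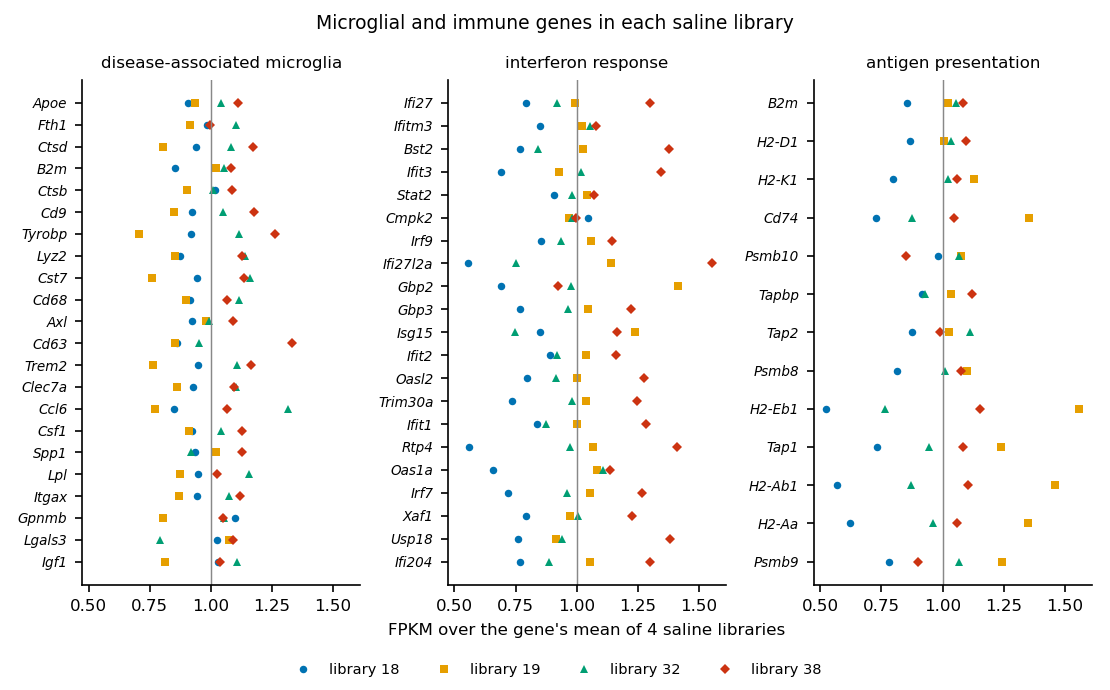
FPKM of each gene past the floor divided by its mean over the 4 saline libraries, for disease-associated microglia, interferon response and antigen presentation genes, one point per library, with 1 interferon gene not shown. Library 19 lies lowest for 17 of 22 disease-associated genes, and library 18 lies lowest for 20 of 22 interferon genes and 12 of 13 antigen presentation genes.

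Genes of border macrophages and blood leukocytes were low. None of 10 border macrophage genes passed the floor: Mrc1, the mannose receptor, was the highest at 0.540, 0.763, 0.709 and 0.962 FPKM, and the summed level of the list lay between 2.46 and 4.38 FPKM. None of 13 lymphocyte and neutrophil genes passed either, with sums of 0.395 to 0.908 FPKM. The T cell gene Cd3e was listed at 0 in library 18 and at 0.0538 FPKM or less in the others.

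Complement genes were led by the 3 chains of C1q, which microglia make. C1qa was at 113, 102, 137 and 131 FPKM, C1qb at 121, 119, 141 and 136 FPKM, and C1qc at 49.3, 50.6, 61.6 and 58.7 FPKM, each highest in library 32. C4b, which reactive glia express, was at 54.9, 43.2, 59.6 and 54.4 FPKM. C3, the hub of the cascade, stayed below the floor at 0.687, 0.531, 1.02 and 0.998 FPKM. The members with a 2-fold range were Cd59a (2.06, 2.39, 2.54 and 6.71 FPKM) and Cd55 (0.973, 0.913, 0.800 and 2.13 FPKM). Both are membrane inhibitors of complement and were high in library 38 alone. Cd55 was below 1 FPKM in the other libraries and passed the floor through library 38. Without that library 11 members passed and 0 had a 2-fold range. Of the Fc receptors, Fcgr3 was at 22.2, 21.3, 22.4 and 23.3 FPKM and Fcgr1 at 2.55, 3.54, 3.80 and 4.08 FPKM.

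All 30 lysosomal hydrolases and membrane proteins passed the floor with a median of 16.1 FPKM and a median CV of 7.01%, near the 7.72% of all genes. The cathepsin and cystatin list was less even, with a median CV of 12.2%, and neither list had a member with a 2-fold range. Ctsd was at 477, 409, 550 and 596 FPKM. The microglial cysteine protease gene Ctss was at 165, 155, 190 and 187 FPKM, and Ctsb was at 116, 103, 115 and 124 FPKM. Lamp1, the abundant glycoprotein of the lysosomal membrane, was at 129, 119, 127 and 131 FPKM, and Grn, the precursor of progranulin, at 35.4, 35.8, 37.1 and 38.7 FPKM. Library 19 was lowest for 20 of these 30 members, and library 38 was highest for 18 of them and for 11 of 14 cathepsin and cystatin genes.

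The proton pump and autophagy sums were highest in library 18, at 1301, 1187, 1220 and 1191 FPKM and at 660, 613, 613 and 622 FPKM. The lysosomal sum, 1425, 1342, 1432 and 1534 FPKM, was highest in library 38. All 3 sums were at or near their lowest in library 19. Of the 25 autophagy members, 10 were highest in library 18 and 7 in library 38. Atp6v0c, which forms the ring of the V-ATPase, was at 155, 144, 152 and 142 FPKM, and 13 of 18 V-ATPase members were highest in library 18. Sqstm1, the autophagy receptor p62, was at 98.5, 89.9, 93.1 and 89.4 FPKM. Tfeb, the transcription factor that switches on lysosomal genes, stood low at 1.61, 1.69, 1.72 and 2.03 FPKM, and its relatives Tfe3 and Mitf at 3.83 and 1.83 FPKM. No member of either list had a 2-fold range.

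TFEB binds an E-box within a longer element of lysosomal promoters, and its 8-letter core TCACGTGA was looked for, on both strands (it reads the same on each), in the 250 bases before the RefSeq start of genes. It was present in 2 of 11 cathepsin and cystatin genes with a window (18.2%) and in 3 of 24 lysosomal genes (12.5%). Of the V-ATPase genes 1 of 13 held it (7.69%), and of the autophagy and TFEB family genes 1 of 19 (5.26%). Among genes past the floor it was present in 177 of 9883 (1.79%), so each list share rests on few genes. The windows of Ctsd and Ctsa, the 2 most abundant of the 5 cathepsin and lysosomal genes that hold it, are shown with the core in capitals. Ctsd lies on the minus strand at chr7:142387828-142388077 and Ctsa on the plus strand at chr2:164833523-164833772 of GRCm38.p6, and each sequence reads 5′ to 3′ towards the gene.
Ctsd: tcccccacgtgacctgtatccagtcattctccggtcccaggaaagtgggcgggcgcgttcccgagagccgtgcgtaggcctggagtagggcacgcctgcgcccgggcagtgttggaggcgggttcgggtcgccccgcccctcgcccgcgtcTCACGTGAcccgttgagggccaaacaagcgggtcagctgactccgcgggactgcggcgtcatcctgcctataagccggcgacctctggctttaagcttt
Ctsa: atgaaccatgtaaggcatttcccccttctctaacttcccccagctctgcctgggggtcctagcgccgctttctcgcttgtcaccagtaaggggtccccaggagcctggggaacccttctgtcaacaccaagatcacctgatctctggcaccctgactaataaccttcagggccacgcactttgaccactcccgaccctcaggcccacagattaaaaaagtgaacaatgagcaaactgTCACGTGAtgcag
The core begins 99 bases before the start of Ctsd and 13 bases before that of Ctsa, which was at 30.2, 28.3, 30.1 and 33.8 FPKM.

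Interferon-stimulated genes were low in every animal, and most ranked the animals alike at both ends. Of 25 listed genes 22 passed the floor, with a median of 3.46 FPKM and a median CV of 21.3%. Library 18 was the lowest for 20 of the 22 and library 38 the highest for 18, against 24.6% and 27.9% of all genes. The highest member was Ifi27 at 29.0, 36.3, 33.7 and 47.6 FPKM. Bst2, the virus-tethering protein tetherin, was at 9.0, 12, 9.84 and 16.1 FPKM. Ifit3, an RNA-sensing effector, was at 7.82, 10.5, 11.5 and 15.2 FPKM, and Irf7, a transcription factor of the response, at 1.29, 1.89, 1.72 and 2.27 FPKM.

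The 3 members with a 2-fold range (13.6%) were Ifi27l2a, with 2.40, 4.94, 3.26 and 6.72 FPKM, Rtp4, with 1.20, 2.29, 2.09 and 3.03 FPKM, and Gbp2, a guanylate-binding protein, with 2.62, 5.36, 3.70 and 3.50 FPKM. Gbp2 was highest in library 19, unlike Ifi27l2a and Rtp4. Cmpk2 was even at 5.68, 5.27, 5.33 and 5.42 FPKM. The receptor-proximal factor Stat2 was at 6.25, 7.17, 6.74 and 7.38 FPKM. The summed level of the list, 108, 141, 127 and 167 FPKM, rose from library 18 over 32 and 19 to 38. The summed choroid plexus level given further on, 59.7, 478, 106 and 4203 FPKM, had the same order. Among other lists with this order were endothelium and pericytes (262, 300, 265 and 343 FPKM) and antigen presentation (296, 367, 363 and 375 FPKM). Meningeal fibroblasts, ependyma, border macrophages, and lymphocytes and neutrophils had it too. The part of choroid plexus, or of any of the others, in the interferon values was not tested.

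Many, though not all, promoters of the list hold a sequence that the level did not choose. The interferon-stimulated response element, the site of the complex that holds Stat2 and Irf9, has a core of GAAA, any 2 bases and GAAA again. In the 250 bases before the RefSeq start, on either strand, it was found in 10 of 18 members with a window (55.6%), in 302 of 9883 genes past the floor (3.06%) and in 936 of 27025 genes in all (3.46%). The windows of the 4 highest members that hold it are shown with each match in capitals, where the core on the other strand reads TTTC, any 2 bases and TTTC. They lie at chr8:71537473-71537722 (minus strand), chr19:34583279-34583528 (plus), chr10:128270248-128270497 (plus) and chr3:142620413-142620662 (plus) of GRCm38.p6, in the order given.
Bst2: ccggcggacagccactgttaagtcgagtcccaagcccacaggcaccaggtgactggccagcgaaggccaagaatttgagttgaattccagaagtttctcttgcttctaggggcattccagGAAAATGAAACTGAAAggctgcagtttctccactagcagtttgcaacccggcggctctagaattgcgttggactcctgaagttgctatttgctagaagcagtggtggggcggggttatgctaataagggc
Ifit3: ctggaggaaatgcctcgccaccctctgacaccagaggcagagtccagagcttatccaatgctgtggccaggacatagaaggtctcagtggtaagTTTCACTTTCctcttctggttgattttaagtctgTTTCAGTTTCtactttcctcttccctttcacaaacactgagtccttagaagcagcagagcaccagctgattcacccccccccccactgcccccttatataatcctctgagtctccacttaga
Stat2: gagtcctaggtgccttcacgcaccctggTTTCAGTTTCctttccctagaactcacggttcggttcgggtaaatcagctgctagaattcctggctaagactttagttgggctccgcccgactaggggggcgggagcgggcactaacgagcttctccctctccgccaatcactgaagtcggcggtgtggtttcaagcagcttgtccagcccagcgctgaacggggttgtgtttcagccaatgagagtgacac
Gbp2: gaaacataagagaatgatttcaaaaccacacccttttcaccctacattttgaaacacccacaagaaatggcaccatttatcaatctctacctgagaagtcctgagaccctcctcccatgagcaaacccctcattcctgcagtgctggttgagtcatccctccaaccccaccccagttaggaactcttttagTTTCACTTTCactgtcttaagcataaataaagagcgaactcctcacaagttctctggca
Bst2 and Ifit3 hold 2 matches each, overlapping in Bst2, and Stat2 and Gbp2 hold 1. The distance from the first base of the match to the start was 124 and 130 bases in Bst2, 122 and 156 in Ifit3, 222 in Stat2 and 59 in Gbp2. Irf7 had a window with no match.

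Antigen presentation genes set library 18 apart. B2m, the light chain of MHC class I, was at 204, 244, 252 and 259 FPKM, and the heavy chain gene H2-K1 at 17.5, 24.7, 22.4 and 23.2 FPKM. Library 18 was lowest for 12 of 13 members past the floor. The class II genes H2-Aa, H2-Ab1 and H2-Eb1 were the 3 members with a 2-fold range (23.1%): H2-Eb1 was at 1.05, 3.12, 1.53 and 2.31 FPKM and H2-Ab1 at 0.974, 2.51, 1.5 and 1.9 FPKM. Cd74, the class II invariant chain, followed them at 9.23, 17.2, 11.1 and 13.3 FPKM. All 4 class II genes were highest in library 19 and lowest in library 18, whereas Trem2 and Tyrobp were lowest in library 19.

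Of 21 cytokine and inflammasome genes 11 passed the floor, with a median of 2.30 FPKM. Il1b, Tnf and Il6 did not pass: Il1b was at 0.212 FPKM, Tnf at 0.0863 FPKM and Il6 was listed at 0 in libraries 18 and 38. Ccl3, a chemokine of plaque microglia, was at 6.03, 5.73, 6.84 and 6.15 FPKM, and Ccl12 had a 2-fold range at 0.737, 1.5, 1.29 and 1.85 FPKM. Cx3cl1, the neuronal ligand of the microglial receptor Cx3cr1, was at 114, 109, 100 and 95.5 FPKM, and Cx3cr1 itself at 20.9, 21.0, 23.6 and 23.5 FPKM.

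Reactive astrocyte genes spanned a wide range of levels. Gfap, the intermediate filament of reactive astrocytes, was at 333, 244, 392 and 346 FPKM, ranking 53 by mean. Serpina3n, a secreted protease inhibitor, was at 56.1, 31.8, 66.2 and 51.9 FPKM, a 2.08-fold range, and Vim was at 15.5, 13.5, 18.6 and 18.6 FPKM. Library 19 was lowest for all 3, as it was for Aqp4 and C4b. The ratio of Gfap to the glutamate transporter gene Slc1a2 was 1.9, 1.26, 2.07 and 1.93, so library 19 was low in Gfap while Slc1a2 was at its highest there. The other members with a 2-fold range, Cp, Hspb1, Cxcl10 and Fbln5, were not lowest in library 19; Cxcl10, an interferon-induced chemokine, was at 0.968, 1.16, 2.24 and 2.24 FPKM. Lcn2, induced in astrocytes by strong inflammation, was below the floor at 0.142 FPKM.

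Of all the lists the choroid plexus, whose epithelial cells make cerebrospinal fluid, differed most between the 4 animals, with a summed level that varied 70.4-fold. Ttr was at 16.4, 379, 59.2 and 3547 FPKM, a 216-fold range, and so ranked 13 in library 38 and 2733 in library 18. Enpp2, the secreted enzyme autotaxin, was at 32.4, 66.9, 32.5 and 438 FPKM. The potassium channel genes Kcnj13 and Kcne2 were at 0.719, 4.09, 1.23 and 34.0 FPKM and at 0.131, 1.84, 0.219 and 19.7 FPKM. Folr1, the folate receptor that moves folate into the fluid, was at 0.334, 2.15, 0.322 and 16.8 FPKM, and Aqp1, its apical water channel, at 0.117, 1.5, 0.414 and 14.8 FPKM. Library 38 was highest and library 19 second for each, far from libraries 18 and 32.

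All 17 choroid plexus genes past the floor had a 2-fold range, and all 17 were highest in library 38. Since high values in that library carried 10 of them over the floor, this count is a description. Without library 38, 7 passed and 5 had a 2-fold range, with a median CV of 58.1%. The remaining 2 of the 19 listed genes, Cdh3 and Calml4, stayed below the floor, and Cdh3 was listed at 0 in library 18. The anion exchanger relative Slc4a5 (0.0873, 1.05, 0.0851 and 8.07 FPKM), the coagulation factor gene F5 (0.129, 1.15, 0.412 and 11.6 FPKM) and Tmem72 (0.0369, 0.484, 0.0710 and 3.79 FPKM) had ranges of 94.8, 90.3 and 103-fold. Wfdc2, which is on no list, was at 0.0775, 0.499, 0 and 3.48 FPKM, and passed the floor through library 38.

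**Figure D4:**
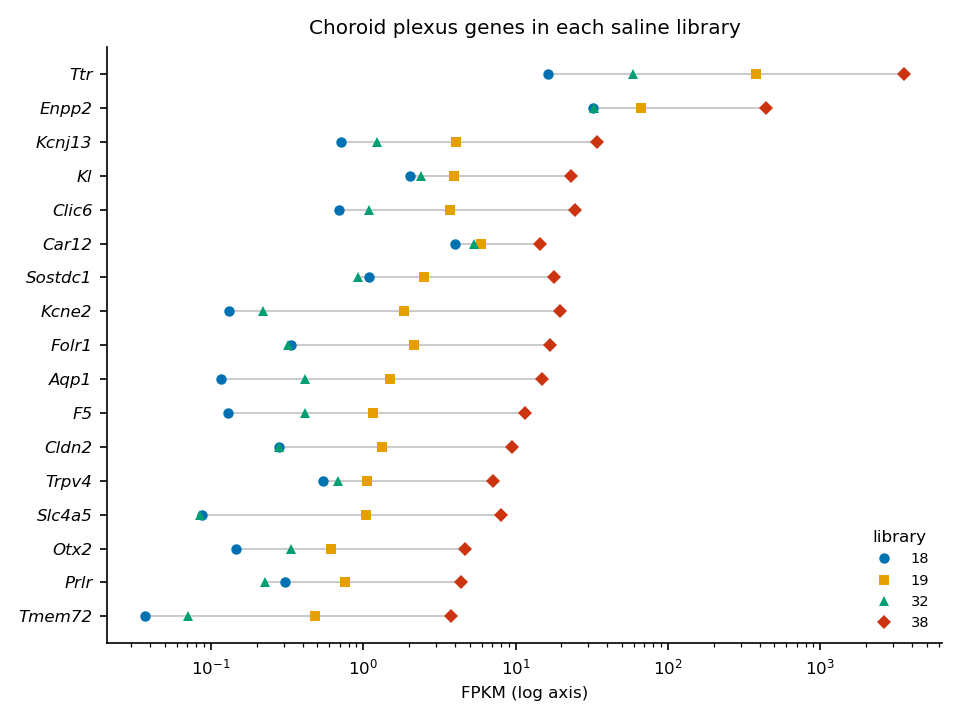
FPKM of the 17 choroid plexus genes past the floor in each saline library, on a log axis, with a line from the lowest to the highest value. Library 38 is highest and library 19 second for every gene, while libraries 18 and 32 share the lowest place.

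Other tissue next to the ventricle and pia followed. Of 11 meningeal fibroblast genes past the floor, 10 had a 2-fold range (90.9%) and 11 were highest in library 38. Igf2, a growth factor of meninges and choroid plexus, was at 7.15, 17.1, 9.94 and 40.5 FPKM, its binding protein gene Igfbp2 at 13.2, 23.7, 16.0 and 73.8 FPKM, and the collagen gene Col1a2 at 0.706, 1.5, 0.908 and 2.15 FPKM. Without library 38, 4 members had a 2-fold range. Among ependymal genes Foxj1, the master factor of motile cilia, was at 3.84, 4.74, 3.52 and 9.18 FPKM, and 3 of 7 had a 2-fold range, 0 without library 38. The endothelial and pericyte list had no member with a 2-fold range. Of its 13 members past the floor, 10 were highest in library 19 and 11 lowest in library 18, against 23.3% and 24.6% of all genes. Cldn5, the tight junction claudin of endothelium, was among them at 23.3, 27.3, 25.8 and 25.1 FPKM. Bsg, which is shared by endothelium and other epithelia, was highest in library 38, at 154, 164, 148 and 214 FPKM.

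Of 19 heat shock and unfolded protein response genes, 12 were highest in library 38 (27.9% of all genes were) and 2 had a 2-fold range (10.5%). Hspa5, the chaperone BiP, was at 47.8, 55.2, 51.7 and 78.3 FPKM, Pdia4 at 14.9, 17.6, 16.0 and 24.0 FPKM, and Sdf2l1 at 6.02, 7.47, 9.11 and 13.5 FPKM. The cytosolic chaperone gene Hspa8 was at 334, 300, 321 and 335 FPKM. In library 38 the summed choroid plexus level was 4203 FPKM, and the part of those cells in the complement inhibitor, chaperone and meningeal values was not tested.

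**Figure D5:**
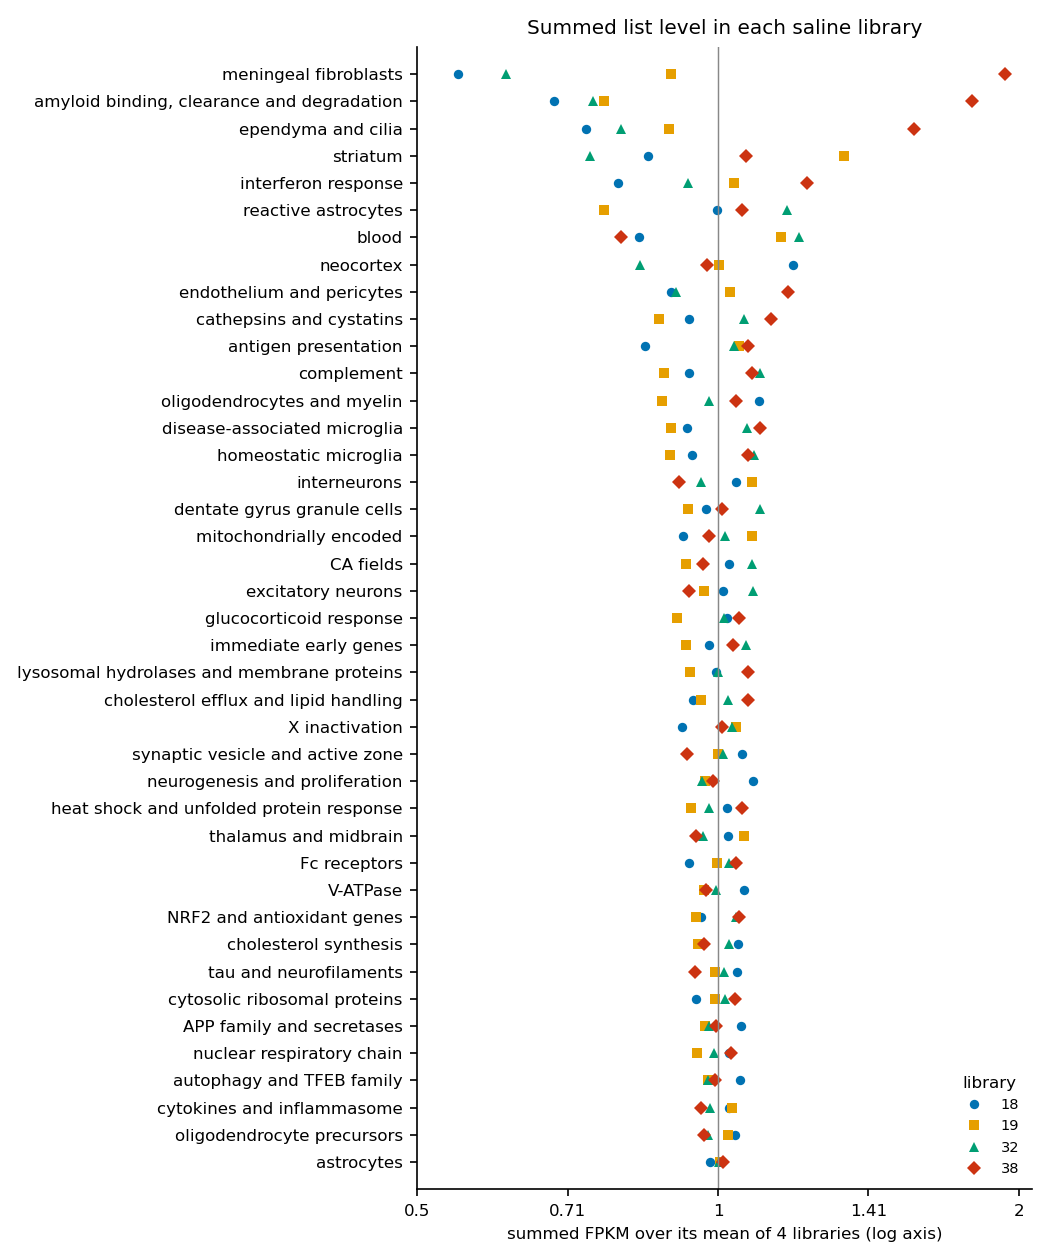
Summed FPKM of each list with a member past the floor, in each saline library, divided by its mean over the 4 libraries, on a log axis, ordered by the ratio of the highest to the lowest library; the choroid plexus list, at 70.4-fold, is left out. Meningeal fibroblasts, the amyloid-binding list that contains Ttr, ependyma and striatum lie widest, and astrocytes lie narrowest at 1.03-fold.

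Marker genes of neighbouring brain regions differed between libraries too. Penk, the enkephalin precursor, was at 13, 23.7, 10.1 and 10.9 FPKM. Library 19 was the highest, as it was for 4 of the 7 striatal genes past the floor (23.3% of all genes), and 4 of the 7 had a 2-fold range. With the floor applied again, 3 had a 2-fold range without library 19. The list median of 2.13 FPKM then became 3.97 FPKM, and 4.11 FPKM without library 18, so the set depends on single libraries. The defining markers Drd2 and Adora2a were below the floor, at 0.813 and 0.691 FPKM, with Adora2a at 1.51 FPKM in library 19 and 0.353 to 0.471 FPKM in the others. Ppp1r1b, the dopamine signalling protein DARPP-32, was highest in library 38, at 11.5, 18.4, 13.4 and 26.4 FPKM. The sums of choroid plexus and of several other lists had this order.

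Of 11 neocortical genes past the floor, 3 had a 2-fold range. Ccn2, a marker of deep layer neurons, was at 7.67, 5.38, 1.43 and 4.06 FPKM, Tshz2 at 9.99, 3.86, 4.08 and 7.38 FPKM, and Cplx3 at 2.18, 2.27, 0.631 and 1.43 FPKM. Fezf2, the factor of deep projection neurons, had 15.1, 8.86, 9.51 and 13.6 FPKM. Library 18 was highest for 5 of the 11 members and library 32 lowest for 6, against 27.9% and 24.1% of all genes, a difference of few genes. Slc17a6, the glutamate transporter of thalamic and other subcortical neurons, was highest in library 18, at 4.85, 2.62, 1.48 and 2.60 FPKM. It was the widest member of the thalamus and midbrain list, which did not share its order. Library 18 was highest for 2 of the 8 members past the floor, and the list sums were 36.9, 38.3, 34.9 and 34.3 FPKM. The thalamic factor Tcf7l2 was below the floor at 0.446 to 0.566 FPKM. How much tissue outside the hippocampus each piece held was not tested.

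Trh, the precursor of thyrotropin-releasing hormone, was highest in library 19. It was at 0.258, 5.94, 0 and 0.180 FPKM, and against the limit of 3 counts in library 32 its level in library 19 was at least 199-fold higher. Trh passed the floor through library 19 alone, as it was at 0.258 FPKM or less in the others. Baiap3, Otof and Cckbr, read out after their values were seen, were also highest in library 19. Baiap3 was at 1.52, 9.36, 1.37 and 2.01 FPKM and Otof at 0.975, 5.93, 0.716 and 0.979 FPKM. Cckbr, the brain cholecystokinin receptor, was at 3.88, 7.86, 1.26 and 2.71 FPKM. Otof also passed the floor through library 19, as it was below 1 FPKM in the others.

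Metabolic and stress lists differed in evenness. The 24 cytosolic ribosomal protein genes had a median of 71.8 FPKM and a median CV of 5.41%, and 16 were highest in library 38 and 16 lowest in library 18. The nuclear genes of the respiratory chain had a median CV of 5.25%; Cox6a1 was at 193, 187, 201 and 199 FPKM. Cholesterol synthesis genes were led by Hmgcs1 at 57.6, 51.7, 57.0 and 53.3 FPKM, and 14 of 20 were highest in library 18. The NRF2 and antioxidant list had a median CV of 8.56%, and Nqo1, an NRF2 target and its least even member, was at 1.81, 1.81, 1.75 and 3.45 FPKM. The immediate early genes had a median CV of 12.3%; Arc was at 28.6, 29.3, 37.8 and 35.8 FPKM and Fos at 3.74, 3.69, 4.79 and 4.82 FPKM, both higher in libraries 32 and 38. Among genes of hippocampal neurogenesis Dcx, of immature neurons, was at 1.80, 2.48, 1.29 and 1.65 FPKM. The hemoglobin gene Hbb-bs, a sign of red blood cells left in the tissue, was at 51.7, 75.8, 78.7 and 51.5 FPKM, and Xist, the RNA that coats and silences an X chromosome in females, was at 50.1, 56.9, 56.3 and 55.1 FPKM.

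The libraries differed in the genes that set them apart. Of the 610 genes with a 2-fold range, 285 (46.7%) were highest in library 38 and 243 (39.8%) lowest in library 18, and 161 genes joined both. The floor is a mean over all 4 libraries, so a gene high in a single library can pass through it. These counts are therefore a description. Without library 38, 348 of 13581 genes past the floor had a 2-fold range. The first of 3 principal components over log2(FPKM + 1) held 47.9% of the variance, scored 19.97 in library 38 and -12.05 in library 18, and was led by Ttr, Ecrg4 and Kcnj13. The second held 29.7% and scored 15.66 in library 19 against -10.38 to -1.17 in the others. Its leading genes were mostly predicted genes, with Gm49510 and Gm10705 first, and Trh, Hnrnpa3 and Baiap3 were the named genes among them. The third, with 22.4%, set library 18 at 11.88 against library 32 at -10.17. It was led by Commd1b, with predicted genes, pseudogenes, Hnrnpa3 and Ndor1 among its leading genes. With 4 libraries, these axes only restate which animal differs from which.

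Predicted genes and pseudogenes varied more often than other genes. Predicted genes and pseudogenes made up 204 of the 610, and 13.4% of those past the floor had a 2-fold range, against 3.33% of the other genes. Of the 610, 143 overlap another gene on the same strand. For 45 of these the partner moved the opposite way by at least 50% of the difference while the sum of both, scaled for library size, varied less than 1.5-fold. How often genes past the floor at large overlap another gene or move in this way was not computed. Commd1b, at chromosome 11, 22784744 to 22932090, had counts of 1274, 0, 0 and 1317, while B3gnt2, at 22709738 to 22810961 on the same strand, had 186, 1405, 1319 and 643. Their sum varied 1.44-fold where B3gnt2 alone varied 7.0-fold. The levels of such overlapping genes are uncertain, and the rule for finding them was chosen after the data were seen.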

How the data were processed

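Whole hippocampus of 5xFAD mice was sequenced as oligo(dT)-selected RNA, and the 4 saline libraries of 13 were used. Per the file headers, the table deposited by the authors gives a raw read count and an FPKM value for each gene and library. Per the submitters' processing notes, cutadapt 1.9, HISAT2 2.0.4, StringTie 1.3.4d and edgeR were used. For the counter, genome build and annotation release, nothing is stated (not given in the sources used here), and coordinates are those of the table.

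Mean, SD, CV, rank and range were computed from the FPKM values with Python 3.11.15, numpy 2.4.6 and pandas 2.3.3, and drawn with matplotlib 3.10.9. The floor was a mean of 1 FPKM and a mean count of 50. The biological coefficient of variation came from the raw counts with edgeR 4.0.16 in R 4.3.3, with DESeq2 1.42.0 as an alternative, and was tested on simulated data. Lists held 691 entries in 44 lists, of which 1 matched no gene. Promoter windows came from RefSeq, GRCm38.p6.

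The members and lists were chosen with earlier results of these data known. Genes named by rule were the 15 highest outside the mitochondrial genome and the 5 highest within it, the 12 with the largest range, the 10 with the smallest CV at 10 FPKM or more, per list the 3 highest and the widest, and a set of 37 genes of the amyloid model. Pseudogenes were left out of the 15 highest, and predicted genes and pseudogenes out of the 12 with the largest range. Some of the genes named by rule are not reported here. Other list members and genes were named after their values were seen. A gene at 0 in a library was given a limit of 3 counts, which covers counting error only. The labels number the animals, and the spread measures the difference between these samples only.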

Additional observations from a re-analysis of the deposited data

Results flagged for a closer look

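For each gene given in the report and for each list sum, the gap between the most distant library and its nearest neighbour was divided by the range over the 4 libraries, and a share above Dixon's 95% critical value for 4 samples set it apart. Chance sets about 5% of such groups of 4 apart. Here it was 805 of the genes past the floor (5.88%), 4 of 43 list sums and 25 of 178 genes in the text, many of which were given for their range.

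Library 38 stood apart in the choroid plexus sum, with a gap of 0.899 of the range, and in the sum of genes that bind, clear or degrade amyloid beta, with 0.924, which contains Ttr. Choroid plexus genes set apart by that library were Ttr (0.897), Enpp2 (0.915), Kcnj13 (0.899), Kcne2 (0.913), Folr1 (0.889), Aqp1 (0.906), Slc4a5 (0.879), F5 (0.912), Tmem72 (0.881), Calml4 (0.877) and Cdh3 (0.832). Outside the list the same library was apart for Ecrg4 (0.922), Wfdc2 (0.856), the complement inhibitors Cd59a (0.898) and Cd55 (0.871), and Nqo1 (0.964). The part of choroid plexus in these was not tested.

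Library 19 stood apart upwards for Trh (0.957), Otof (0.950), Baiap3 (0.920), Adora2a (0.898) and Calb1 (0.883). It stood apart downwards for Itm2b, at 210 FPKM against 240 to 241 FPKM (0.959), and for Gpnmb, at 1.44 FPKM against 1.88 to 1.97 FPKM (0.830).

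Library 18 was apart in the antigen presentation sum, at 296 FPKM against 363 to 375 FPKM (0.840), and in the neurogenesis and proliferation sum, at 183 FPKM against 163 to 167 FPKM (0.834). The latter rests on Tubb3, a tubulin of neurons at large, at 118, 95.7, 89.3 and 92.1 FPKM: library 18 was highest for 1 of the 10 members past the floor and lowest for 5. It was also apart for Scd2, at 295 FPKM against 292 FPKM (0.934), where the whole range is 3 FPKM or less. Library 32 was apart for Hnrnpa3 (0.944).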

How the results depend on the processing

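No paired analysis was possible because only 1 group was described. The number of genes at a mean of 1 FPKM stayed between 13875 and 14019 when each library was left out in turn. The 100 highest genes held 24.5% of the summed FPKM without mitochondrially encoded genes and 19.6% as a share of counts, and 40.4 to 41.5% with a library left out. The 610 genes with a 2-fold range became 104 at a mean of 5 FPKM or more and 4861 at a mean count of 10 with no FPKM floor. They became 367 with 0.5 FPKM added to each value, 1824 at a 1.5-fold range and 217 at a 3-fold range. With a library left out they were 348 to 455, the lowest without library 38. The median CV was 12% at a mean count of 10 with no FPKM floor, and 7.03 to 7.61% with a library left out. The biological coefficient of variation was 11% at a mean of 5 FPKM or more, 11.5% as the median from DESeq2 and 26.3% with no filter beyond a count above 0, and 16.5 to 19.4% with a library left out. Scalings of the counts (TMM, RLE and library totals) gave a median CV of 7.69 to 7.73%.

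List counts of 2-fold ranges rest on single libraries in several cases. Without library 38 they were 5 for choroid plexus, 4 for meningeal fibroblasts, 2 for reactive astrocytes, 1 for thalamus and midbrain, and 0 for ependyma, complement, cytokines and heat shock genes. Without library 18 they were 1 for interferon response, antigen presentation, reactive astrocytes, and thalamus and midbrain, and 0 for cytokines and heat shock genes. Without library 19 the count was 1 for antigen presentation. Without library 32 they were 1 for neocortex and 0 for thalamus and midbrain. With 4 animals, no wild type and no record of dissection, levels below the floor and spread in animals at large are beyond these data.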

Other observations

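Some abundant genes have near-identical pseudogene copies in the table, a check chosen after their values were seen. Gapdh, the glycolytic enzyme, was listed at 21.7, 7.98, 10.6 and 19.0 FPKM in libraries 18, 19, 32 and 38. It held 2.31 to 5.51% of the counts summed over itself and 29 copies, each sharing at least 50% of its 31-base words with the gene, while the copies together held 94778, 93509, 106366 and 107063 counts. Hnrnpa3, an RNA-binding protein gene, was at 28.6, 27.5, 1.54 and 29.0 FPKM. Its 10 copies held 4667, 5144, 6167 and 6187 counts, so the drop of the gene to 603 counts in library 32, from 9543 to 11786 in the others, was not met by a rise of that size in the copies. Sumo2, a protein modifier gene, had 2554, 1763, 4368 and 2181 counts where its 4 copies had 1963, 2711, 1561 and 3174, highest where the copies were lowest. The levels of these 3 genes are uncertain, and the cause of their range was not tested.

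A large coding gene was also low in 1 library. Ahnak, a large scaffold protein, was at 1.31, 0.0221, 1.59 and 2.03 FPKM, low in library 19. The cause was not tested.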
